A study of Mus musculus with 12 samples.

Results

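Collagens are the structural proteins of the extracellular matrix, and their genes were followed here in lung tumour cells that overexpressed the transcription factor NRF2, were given the histone deacetylase inhibitor romidepsin, or both. Members were all rows of the deposited table whose symbol reads Col, a number, a and a number. There were 44 such rows among 35013 genes, and the 27 with 50 or more estimated counts summed over the 12 libraries are described. The cells were KP1, a mouse line labelled as lung adenocarcinoma (LUAD), cultured alone and without host tissue. The 4 groups of 3 libraries were NRF2-overexpressing (NRF2) cells with romidepsin, empty vector (EV) cells with romidepsin, NRF2 cells with DMSO, and EV cells with DMSO. Romidepsin was given at 5 nM for 16 h, and DMSO is its solvent. All 12 libraries came from 1 line, every culture was moved from DMEM to RPMI for the treatment, and the promoter of the vectors and any selection of clones are not given in the sources used here. The series design calls the libraries of a group biological replicates, and p-values measure the spread between such cultures.

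Each collagen is a trimer of alpha chains wound into a triple helix, and each gene encodes a single chain. Fibrillar collagens such as types I, II, V and XI form the rope-like fibrils of connective tissue, type IV forms the sheet of the basement membrane under epithelia, and type VI forms beaded filaments. The fibril-associated (FACIT), anchoring and transmembrane types join fibrils, basement membranes and cells to one another. Romidepsin blocks class I histone deacetylases, which remove acetyl groups from histones, and NRF2 activates antioxidant and detoxification genes.

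The libraries held 16842824 to 28003010 estimated counts. Levels are CPM, counts scaled to a common total with TMM factors, which correct for composition. A count of 0 allows a level of up to 0.105 to 0.182 CPM in 1 library (3 counts of its total, counting error only). Nfe2l2, which encodes NRF2, averaged 349 ± 14 CPM in NRF2 cells with romidepsin and 96.3 ± 2.9 CPM in EV cells with romidepsin (SD, n = 3 each). With DMSO it averaged 305 ± 41 CPM in NRF2 cells and 102 ± 1.4 CPM in EV cells. Of 11 markers of lung epithelium and adenocarcinoma, 5 or 6 reached 1 CPM in every group, led by keratins. Nkx2-1 and Sftpc, which mark lung epithelium, stayed under 1 CPM in every group. Of 5 endothelial markers 1 reached 1 CPM, as did 1 of 6 leukocyte markers. That one, Cd68, averaged 68.4 and 49.6 CPM with romidepsin in NRF2 and EV cells and 4.03 and 3.27 CPM with DMSO. Replicate 3 of NRF2 cells with DMSO lay farthest from the other replicates of its group, at a root mean square log2 distance of 0.465, against 0.255 to 0.35 for the other 11 libraries.

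Group differences come from 1 edgeR quasi-likelihood fit over all 12 libraries, with Benjamini-Hochberg adjustment over the 13502 genes that passed its filter on low counts. A gene is called where this adjusted p is under 0.05. Of the 27 members 24 were tested, and Col22a1, Col23a1 and Col28a1, with 77, 50 and 72 counts in all, were too low. Just outside the rule lay Col25a1 with 46 counts, Col15a1 with 39 and Col1a2 with 37. The other 14 rows of the rule held 0 to 27 counts, among them Col3a1, a main fibrillar chain of connective tissue, with 4, and Col9a1 and Col13a1 with 0.

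Most tested collagen genes were higher with romidepsin, while Col4a1, Col4a2 and Col8a1 were lower. In NRF2 cells 17 of the 24 tested members were higher and 3 lower with romidepsin, where 79.8% of all genes tested were called, 40.5% higher and 39.3% lower. In EV cells 16 members were higher and 3 lower, where 76.5% of all genes were called, 39.1% higher and 37.4% lower. The members' median log2 fold change was 1.93 in NRF2 cells and 1.42 in EV cells, and that of all genes tested was 0.01 in each. As many as 16 members in NRF2 cells and 13 in EV cells were called and at least 2-fold higher, against 19.2% and 17.8% of all genes. These counts are partly set by the filter, because 13 of the tested members lay under 1 CPM in both DMSO groups and could pass largely through the libraries where they were high. With the filter applied to the 6 DMSO libraries alone, a choice made after the data were seen, 14 members remained, of which 8 were higher and 2 lower in NRF2 cells and 8 were higher and 3 lower in EV cells. Their median log2 fold change was 0.78 in NRF2 cells and 0.41 in EV cells, against -0.02 and -0.01 for all genes. In that fit 39.4% of all genes were higher and 40.3% lower in NRF2 cells, and 38% were higher and 38.5% lower in EV cells. The share of members called in either direction was near that of all genes.

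Of the members, 15 were higher with romidepsin in both NRF2 and EV cells, 3 were lower in both (Col4a1, Col4a2 and Col8a1), and none was called in opposite directions. Col6a2 and Col24a1 were called, as higher, in NRF2 cells alone, and Col18a1 was called in EV cells alone. Col4a5, Col26a1 and Col27a1 were called with romidepsin in neither. Groups did not overlap for 20 of the 24 members in NRF2 cells, against 79.8% of all genes, and for 19 in EV cells, against 81% of all genes.

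**Figure D1:**
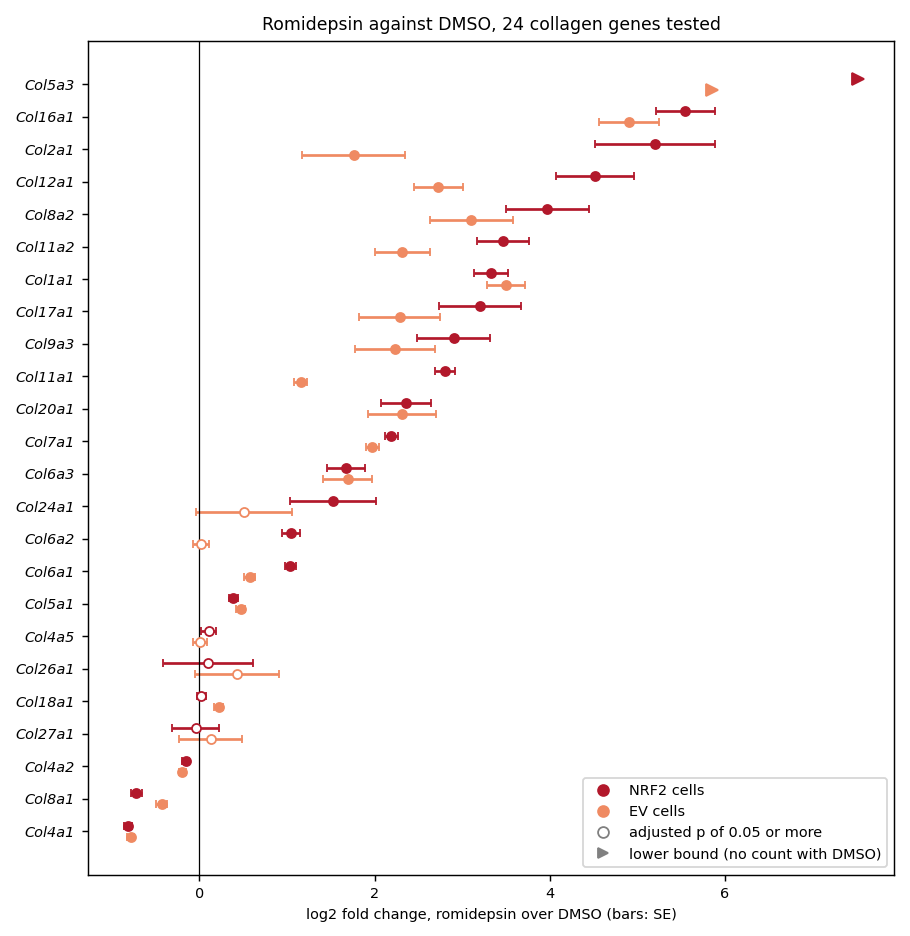
Log2 fold change of romidepsin over DMSO (x axis) for the 24 tested collagen genes (y axis) in NRF2 cells (dark red) and EV cells (orange), with standard errors as bars, open points for genes not called, and triangles for the lower bounds of Col5a3, which had no count with DMSO. Col4a1, Col8a1 and Col4a2 lie left of 0 in both, and most other genes lie right of it; the NRF2 value of Col2a1 rests on 1 count with DMSO.

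Col4a1 and Col4a2 encode the chains of the common type IV trimer, which every basement membrane holds. Both genes lie on chromosome 8 in GRCm38 (GENCODE M21). Col4a1 (ENSMUSG00000031502.11) is at chr8:11198423-11312826 on the minus strand and Col4a2 (ENSMUSG00000031503.13) at chr8:11312805-11449287 on the plus strand. Their annotated starts overlap by 22 bases head to head. Reads from those bases cannot be given to a strand unless the counting used strand, which is not stated. The promoter windows of both, from 250 bases before to 50 bases after the start in RefSeq (GRCm38.p6), are shown because the genes start side by side. The Col4a1 window is at chr8:11312777-11313076 (minus strand) and Col4a2 at chr8:11312555-11312854 (plus strand), and the windows share 78 bases. Capitals mark matches on either strand to 3 motifs. They are the GC box, GGGCGG, then the CCAAT box, spelled as its name, and the core of the antioxidant response element that NRF2 binds. That core was searched as TGACNNNGC.
Col4a1: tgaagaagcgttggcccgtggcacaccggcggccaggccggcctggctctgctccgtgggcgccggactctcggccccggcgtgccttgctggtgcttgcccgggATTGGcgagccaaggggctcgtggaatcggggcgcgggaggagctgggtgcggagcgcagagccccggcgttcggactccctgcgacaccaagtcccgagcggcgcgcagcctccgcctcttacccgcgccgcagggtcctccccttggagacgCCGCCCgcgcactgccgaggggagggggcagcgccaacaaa
Col4a2: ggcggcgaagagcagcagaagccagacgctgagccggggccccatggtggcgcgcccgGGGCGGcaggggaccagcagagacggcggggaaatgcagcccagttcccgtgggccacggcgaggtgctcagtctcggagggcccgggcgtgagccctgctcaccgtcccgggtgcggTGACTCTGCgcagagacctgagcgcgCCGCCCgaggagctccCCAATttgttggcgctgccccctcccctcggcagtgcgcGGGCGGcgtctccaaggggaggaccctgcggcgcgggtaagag
The Col4a2 window held 33 CpG dinucleotides and the Col4a1 window 37, where the median of all 32851 windows was 7. Their GC content was 73.7% and 74.0%, where the median was 52.7%. The antioxidant response core was found in the Col4a2 window and not in that of Col4a1. It was found in 12.4% of all windows, and a match of letters does not show binding.

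Col4a1 fell with romidepsin, and Col4a2 fell by a smaller amount. Col4a1 had 447, 452 and 424 CPM in NRF2 cells with romidepsin, against 786, 762 and 780 CPM in NRF2 cells with DMSO. It had 379, 377 and 376 CPM in EV cells with romidepsin, against 664, 661 and 628 CPM in EV cells with DMSO. Every romidepsin library lay under every DMSO library, and with either agent every NRF2 library lay over every EV library. The log2 fold change with romidepsin was -0.81 ± 0.04 (SE) in NRF2 cells (edgeR adjusted p = 6.1e-12) and -0.79 ± 0.04 in EV cells (edgeR adjusted p = 1.5e-11). Col4a2 had 465, 481 and 450 CPM in NRF2 cells with romidepsin, against 520, 508 and 529 CPM in NRF2 cells with DMSO. In EV cells it had 393, 372 and 382 CPM with romidepsin, against 452, 438 and 422 CPM with DMSO. Its groups did not overlap either, at log2 fold changes of -0.16 ± 0.04 in NRF2 cells (edgeR adjusted p = 0.0032) and -0.19 ± 0.04 in EV cells (edgeR adjusted p = 0.00064). That call ended with upper-quartile factors (-0.05 in NRF2 and -0.08 in EV cells) and with library size alone (-0.02 and -0.07), settings that move the median of all genes up by 0.11 to 0.14 with romidepsin. In NRF2 cells it also ended with the filter on the DMSO libraries alone (-0.09, edgeR adjusted p = 0.078), whereas the call of Col4a1 held in every setting run.

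The ratio of the type IV chains thus differed between treatments. Per kilobase of the longest transcript, Col4a1 over Col4a2 was 0.937, 0.918 and 0.919 in NRF2 cells with romidepsin and 0.939, 0.989 and 0.961 in EV cells with romidepsin. It was 1.47, 1.46 and 1.44 in NRF2 cells with DMSO and 1.43, 1.47 and 1.45 in EV cells with DMSO. All 6 romidepsin libraries lay under 1 and all 6 DMSO libraries over it, while NRF2 and EV cells were close to each other within each treatment. The ratio is given by library as a description, with no test. Which chain is higher depends on the transcript length used. With the median transcript length, which for Col4a1 is 1170 against 6615 bases, the mean ratio was 5.23 and 5.44 with romidepsin in NRF2 and EV cells and 8.24 and 8.20 with DMSO.

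NRF2 cells held more of both type IV chains than EV cells, by 0.25 ± 0.04 on the log2 scale for Col4a1 (edgeR adjusted p = 0.00013) and 0.25 ± 0.04 for Col4a2 (edgeR adjusted p = 0.00025) with DMSO. With romidepsin the differences were 0.23 ± 0.04 (edgeR adjusted p = 0.00034) and 0.28 ± 0.04 (edgeR adjusted p = 5.3e-05). Col4a5, a gene on the X chromosome, encodes a type IV chain best known from kidney and skin. It averaged 14.9 ± 0.69 and 16.1 ± 0.46 CPM with romidepsin in NRF2 and EV cells and 13.8 ± 0.3 and 16.2 ± 1.7 CPM with DMSO (SD, n = 3 each). It was called in none of the 4 comparisons. NRF2 over EV cells with DMSO came closest, at -0.22 ± 0.09 (edgeR adjusted p = 0.054). It was called there when replicate 3 of the EV group (-0.31, edgeR adjusted p = 0.0086) or of the NRF2 group (-0.23, edgeR adjusted p = 0.043) was omitted, with library size alone (-0.25, edgeR adjusted p = 0.029) and with limma-trend (adjusted p = 0.046). With romidepsin in NRF2 cells it was called higher with upper-quartile factors (0.21, edgeR adjusted p = 0.031) and library size alone (0.25, edgeR adjusted p = 0.016). Its head-to-head neighbour Col4a6 had 11 counts in all, and Col4a3 and Col4a4, the partners of Col4a5 in the glomerular trimer, had 27 and 25.

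**Figure D2:**
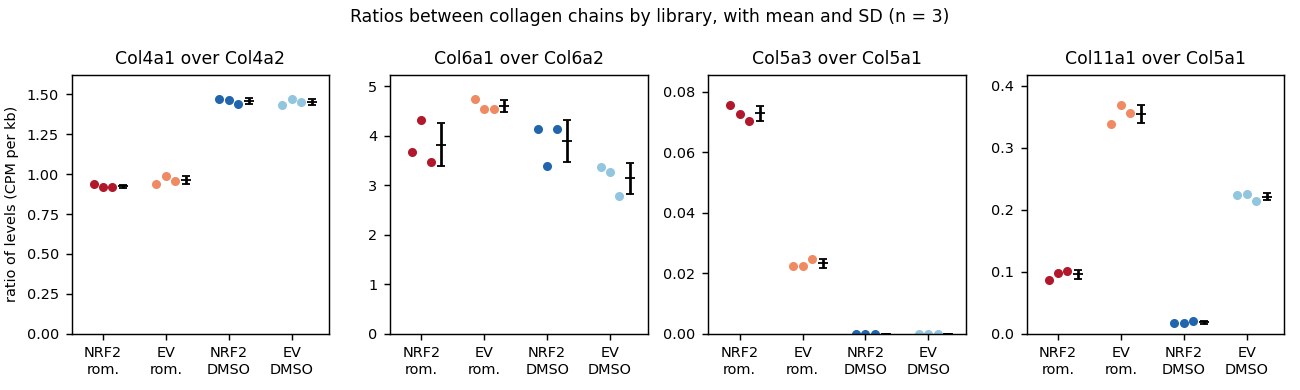
Ratios of levels per kilobase between pairs of collagen genes (y axis) in the 12 libraries, by group (x axis, NRF2 and EV cells with romidepsin, then with DMSO), with the mean and SD of 3 libraries in black. Col4a1 over Col4a2 per kilobase of the longest transcript is under 1 in the 6 romidepsin libraries and over 1 in the 6 DMSO libraries (over 1 in all 12 with the median transcript length); Col11a1 over Col5a1 is higher in EV than in NRF2 cells with either agent.

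Col18a1 encodes type XVIII collagen, a basement membrane proteoglycan whose end fragment is endostatin. It had 246, 256 and 256 CPM in NRF2 cells with romidepsin and 264, 242 and 240 CPM in NRF2 cells with DMSO, which overlapped. In EV cells it had 233, 226 and 223 CPM with romidepsin, all over the 209, 193 and 183 CPM with DMSO. The romidepsin change was 0.02 ± 0.05 on the log2 scale in NRF2 cells (edgeR adjusted p = 0.72) and 0.22 ± 0.05 in EV cells (edgeR adjusted p = 0.00078). The difference between these effects was not called (-0.20 ± 0.07, edgeR adjusted p = 0.069). It became called on omission of 1 DMSO library, replicate 1 of the EV group (edgeR adjusted p = 0.022) or replicate 2 (0.044) or 3 (0.0068) of the NRF2 group. In NRF2 over EV cells it was higher by 0.35 ± 0.05 with DMSO (edgeR adjusted p = 3.5e-05) and by 0.15 ± 0.05 with romidepsin (edgeR adjusted p = 0.023). The romidepsin call in NRF2 cells appeared with upper-quartile factors (0.13, edgeR adjusted p = 0.034) and library size alone (0.16, edgeR adjusted p = 0.013). The NRF2 call with romidepsin was lost with library size alone (edgeR adjusted p = 0.054) and when any of 5 of the 6 libraries compared was left out (adjusted p up to 0.080).

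The fibrillar genes held 8 members. With romidepsin 7 were higher in NRF2 cells, against 40.5% of all genes tested, and 6 in EV cells, against 39.1%. Of these 8, Col1a1, Col5a1, Col11a1 and Col27a1 alone passed the filter on the DMSO libraries, so that the other 4 were tested through the romidepsin libraries. The promoter windows (RefSeq, GRCm38.p6) of Col5a3, which had no count with DMSO, and Col11a1, which differed most between NRF2 and EV cells with DMSO, are shown. The Col5a3 window is at chr9:20815018-20815317 (minus strand) and that of Col11a1 at chr3:114030290-114030589 (plus strand), with the same motifs in capitals.
Col5a3: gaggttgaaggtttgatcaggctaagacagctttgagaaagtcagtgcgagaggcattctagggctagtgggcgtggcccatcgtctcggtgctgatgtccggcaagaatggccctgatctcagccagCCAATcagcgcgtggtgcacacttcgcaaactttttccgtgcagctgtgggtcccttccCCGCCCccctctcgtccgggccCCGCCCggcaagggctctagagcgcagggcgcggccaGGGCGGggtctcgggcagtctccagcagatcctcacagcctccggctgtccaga
Col11a1: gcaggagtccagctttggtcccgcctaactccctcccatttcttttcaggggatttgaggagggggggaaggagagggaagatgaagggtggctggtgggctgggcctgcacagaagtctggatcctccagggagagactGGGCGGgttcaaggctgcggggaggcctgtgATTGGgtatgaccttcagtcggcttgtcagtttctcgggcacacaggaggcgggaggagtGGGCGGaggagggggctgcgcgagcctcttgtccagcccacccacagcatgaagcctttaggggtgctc
The Col5a3 window held 3 GC boxes, 1 CCAAT box and 20 CpG dinucleotides, and that of Col11a1 held 2 GC boxes, 1 CCAAT box and 9 CpG dinucleotides. Of the 21 members with a window, 15 held a GC box (35.7% of all windows), 9 a CCAAT box (37.4%), 2 a TATA box read as TATAAA (13.6%) and 4 the antioxidant response core (12.4%), namely Col4a2, Col6a2, Col7a1 and Col24a1. Col6a1 alone held the AP-1 site TGANTCA (7.81%). Col6a2 and Col18a1 have 2 windows each, and Col1a1, Col2a1, Col9a3, Col12a1, Col22a1 and Col26a1 have none in the table.

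Col5a3 encodes the third chain of type V collagen, which sits inside fibrils and limits their width. Its gene (ENSMUSG00000004098.7) lies at chr9:20770050-20815067 on the minus strand. It had 8.98, 8.93 and 7.99 CPM in NRF2 cells with romidepsin and 2.70, 2.70 and 3.02 CPM in EV cells with romidepsin, and no count in any of the 6 DMSO libraries. Against a floor of 3 counts over the DMSO group, it was at least 183-fold higher with romidepsin in NRF2 cells (586 counts against 0) and at least 57.6-fold higher in EV cells (179 counts against 0). With romidepsin it was higher in NRF2 over EV cells by 1.62 ± 0.14 on the log2 scale (edgeR adjusted p = 7.8e-07), without overlap. No fold change between NRF2 and EV cells with DMSO can be given, as both were at 0.

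Col5a1, the chain that all type V trimers need, was by far the most abundant fibrillar gene. It had 163, 169 and 156 CPM in NRF2 cells with romidepsin against 134, 121 and 119 CPM in NRF2 cells with DMSO. In EV cells it had 166, 165 and 168 CPM with romidepsin against 127, 119 and 114 CPM with DMSO. Romidepsin libraries lay over DMSO libraries throughout, at 0.38 ± 0.05 on the log2 scale in NRF2 cells (edgeR adjusted p = 2.8e-06) and 0.47 ± 0.05 in EV cells (edgeR adjusted p = 2.6e-07). Between NRF2 and EV cells the value was 0.06 ± 0.05 with DMSO (edgeR adjusted p = 0.43) and -0.03 ± 0.05 with romidepsin (edgeR adjusted p = 0.68). Col5a2, the usual partner of Col5a1, had 25 counts in the 12 libraries, and its level per kilobase was at most 0.0030 times that of Col5a1 in any library. Col5a3 reached 0.0728 ± 0.0026 of the Col5a1 level per kilobase in NRF2 cells with romidepsin and 0.0232 ± 0.0013 in EV cells with romidepsin.

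Col11a1, a type XI chain known from cartilage and from tumours, had the largest log2 difference between NRF2 and EV cells of the 24 tested members with DMSO. The gene (ENSMUSG00000027966.20) lies at chr3:114030540-114220718 on the plus strand. It had 13.0, 15.2 and 14.4 CPM in NRF2 cells with romidepsin and 51.1, 55.3 and 54.5 CPM in EV cells with romidepsin. With DMSO it had 2.02, 1.86 and 2.30 CPM in NRF2 cells and 25.9, 24.3 and 22.3 CPM in EV cells. All 4 groups were apart, and NRF2 cells with romidepsin still lay under EV cells with DMSO. In NRF2 over EV cells the value was -3.56 ± 0.11 on the log2 scale with DMSO (edgeR adjusted p = 1.9e-13) and -1.92 ± 0.08 with romidepsin (edgeR adjusted p = 8.8e-12). It rose with romidepsin by 2.80 ± 0.11 in NRF2 cells (edgeR adjusted p = 1.7e-13) and by 1.15 ± 0.07 in EV cells (edgeR adjusted p = 1.2e-10). The difference between these effects, 1.65 ± 0.14, was itself called (edgeR adjusted p = 7.8e-07). Relative to Col5a1 per kilobase, with which it can share a trimer, Col11a1 stood at 0.0956 ± 0.0076 and 0.354 ± 0.015 with romidepsin in NRF2 and EV cells, and at 0.0182 ± 0.0026 and 0.221 ± 0.0057 with DMSO (SD, n = 3 each).

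Col1a1, the main chain of type I collagen in bone, tendon and scar, was low with DMSO and rose with romidepsin. It had 7.95, 8.23 and 7.30 CPM in NRF2 cells with romidepsin against 0.639, 0.799 and 0.909 CPM in NRF2 cells with DMSO. In EV cells it had 7.07, 5.50 and 5.76 CPM with romidepsin against 0.641, 0.237 and 0.656 CPM with DMSO. The groups were far apart, at 3.33 ± 0.20 on the log2 scale in NRF2 cells (edgeR adjusted p = 3.5e-11) and 3.50 ± 0.22 in EV cells (edgeR adjusted p = 1e-10). NRF2 over EV cells with romidepsin was at the edge of the threshold (0.36 ± 0.14, edgeR adjusted p = 0.048). That call was lost with DESeq2 (adjusted p = 0.078), with limma-trend (adjusted p = 0.33) and in most fits that left out 1 library. In edgeR it was also lost with no filter on low counts (adjusted p = 0.068), the replicate block (0.063) and library size alone (0.058). Its partner Col1a2, with which it forms the ordinary type I trimer, had 37 counts in all.

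The remaining fibrillar members stayed under 3 CPM. Col11a2, the second type XI chain, averaged 2.88 ± 0.13 and 1.55 ± 0.17 CPM with romidepsin in NRF2 and EV cells and 0.274 ± 0.18 and 0.297 ± 0.079 CPM with DMSO. It was higher with romidepsin in both (3.47 and 2.32 on the log2 scale). Unlike Col11a1, which was lower in NRF2 cells, it was higher in NRF2 over EV cells with romidepsin, by 0.89 ± 0.22 (edgeR adjusted p = 0.0029). Its romidepsin effects in NRF2 and EV cells differed by a call (1.69, edgeR adjusted p = 0.030) only when replicate 3 of the NRF2 DMSO group was omitted. Col27a1, a fibrillar chain of cartilage, was higher in NRF2 over EV cells with DMSO (1.32 ± 0.31, edgeR adjusted p = 0.003) and with romidepsin (1.15 ± 0.30, edgeR adjusted p = 0.0052). Its levels in NRF2 against EV cells were 1.63 ± 0.5 against 0.720 ± 0.08 CPM with romidepsin and 1.66 ± 0.28 against 0.688 ± 0.27 CPM with DMSO. Col2a1, the main chain of cartilage fibrils, had 53 counts in NRF2 cells with romidepsin and 1 in NRF2 cells with DMSO, a ratio of 49.7 (95% counting interval 8.54 to 1998). In EV cells it averaged 0.344 ± 0.061 CPM with romidepsin against 0.101 ± 0.021 CPM with DMSO (1.76 ± 0.59, edgeR adjusted p = 0.012). The EV call of Col2a1 ended without replicate 3 of EV cells with DMSO (edgeR adjusted p = 0.052). With romidepsin it was higher in NRF2 over EV cells (1.19 ± 0.38, edgeR adjusted p = 0.017), a call lost with DESeq2 (adjusted p = 0.071), limma-trend, no filter on low counts, or omission of replicate 3 of either romidepsin group. With DMSO limma-voom called it lower in NRF2 cells (-1.80, adjusted p = 0.041), as did limma-trend, while edgeR did not (-2.25, adjusted p = 0.11). Col24a1 averaged 0.656 ± 0.25 CPM in NRF2 cells with romidepsin against 0.237 ± 0.11 CPM in NRF2 cells with DMSO (1.52 ± 0.49, edgeR adjusted p = 0.0089), a call that ended without replicate 2 of NRF2 cells with DMSO (edgeR adjusted p = 0.053).

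Markers of mesenchyme and of epithelium both differed with romidepsin. Of 10 fibroblast and mesenchyme markers, 6 reached 1 CPM in NRF2 cells with romidepsin, in EV cells with romidepsin and in NRF2 cells with DMSO, and 5 in EV cells with DMSO. Their summed level was 5204 to 5560, 6098 to 6175, 2919 to 3246 and 3419 to 3570 CPM in those groups in that order, nearly all of it Vim. Pdgfra averaged 4.59 and 2.72 CPM with romidepsin in NRF2 and EV cells and 1.48 and 0.745 CPM with DMSO. Prrx1 averaged 6.62 and 11.9 CPM with romidepsin and 21.9 and 36.6 CPM with DMSO. Tcf21, Fap and Acta2 stayed under 1 CPM in every group, with Pdgfrb and Fap at 0 in EV cells with DMSO. The 11 markers of lung epithelium and adenocarcinoma summed to 9416 to 9914 and 6357 to 6502 CPM with romidepsin in NRF2 and EV cells and to 5476 to 6187 and 3748 to 3785 CPM with DMSO. Epcam among them averaged 7.23 and 3.59 CPM with romidepsin and 0.0657 and 0.0307 CPM with DMSO. Cdh1, also among them and more abundant than Epcam, went the other way. It had 225 to 230 CPM with romidepsin against 406 to 424 CPM with DMSO in NRF2 cells. In EV cells Cdh1 had 235 to 256 CPM with romidepsin against 344 to 366 CPM with DMSO. Of 5 chondrocyte markers, 4, 3, 2 and 2 reached 1 CPM in the same order of groups. Their summed level was 175.6 to 192.9 and 89.3 to 98.7 CPM with romidepsin in NRF2 and EV cells and 158.8 to 174.5 and 80.4 to 82.6 CPM with DMSO, most of it Acan, and Matn1 was at 0 in all groups but NRF2 cells with romidepsin. The part of these markers in the collagen results was not tested, and in bulk RNA more cells of a type and more RNA per cell cannot be told apart.

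The type VI genes did not move as a unit. Col6a1 and Col6a2, neighbours on chromosome 10 in the same direction, encode chains that every classical type VI trimer holds. Col6a1 had 39.9, 40.0 and 37.8 CPM in NRF2 cells with romidepsin and 49.9, 52.1 and 51.9 CPM in EV cells with romidepsin. With DMSO it had 19.0, 18.5 and 20.1 CPM in NRF2 cells and 37.0, 35.4 and 31.4 CPM in EV cells. NRF2 libraries lay under EV libraries with each agent, at -0.39 ± 0.06 on the log2 scale with romidepsin (edgeR adjusted p = 6.1e-05) and -0.85 ± 0.07 with DMSO (edgeR adjusted p = 2.8e-08). The level rose with romidepsin by 1.04 ± 0.07 in NRF2 cells (edgeR adjusted p = 9.6e-11) and 0.57 ± 0.06 in EV cells (edgeR adjusted p = 1.5e-07). Col6a2 had 12.3, 10.5 and 12.3 CPM in NRF2 cells with romidepsin and 11.9, 13.0 and 13.0 CPM in EV cells with romidepsin. With DMSO it had 5.21, 6.17 and 5.51 CPM in NRF2 cells and 12.5, 12.3 and 12.8 CPM in EV cells. Here NRF2 cells with DMSO stood alone, under all other libraries. Romidepsin gave 1.05 ± 0.10 in NRF2 cells (edgeR adjusted p = 2.1e-08) and 0.01 ± 0.09 in EV cells (edgeR adjusted p = 0.9). NRF2 over EV cells was lower with DMSO, at -1.15 ± 0.10 (edgeR adjusted p = 7.9e-08), while with romidepsin the value was -0.11 ± 0.09 (edgeR adjusted p = 0.32).

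The romidepsin effect differed between NRF2 and EV cells for both genes, by 1.03 ± 0.13 for Col6a2 (edgeR adjusted p = 6.3e-05) and 0.46 ± 0.09 for Col6a1 (edgeR adjusted p = 0.0021). Col6a3, the longest and usually limiting chain, went the other way in NRF2 cells. It averaged 2.96 ± 0.15 and 1.43 ± 0.25 CPM with romidepsin in NRF2 and EV cells and 0.941 ± 0.21 and 0.439 ± 0.11 CPM with DMSO, so that NRF2 cells were higher by 1.05 ± 0.20 with romidepsin (edgeR adjusted p = 0.00042) and 1.07 ± 0.30 with DMSO (edgeR adjusted p = 0.0094). Per kilobase it stood at 0.0306 ± 0.0016 and 0.0114 ± 0.0023 of Col6a1 with romidepsin in NRF2 and EV cells, and at 0.0199 ± 0.0041 and 0.00521 ± 0.0015 with DMSO. Col6a4, Col6a5 and Col6a6 had 4, 4 and 5 counts in all.

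**Figure D3:**
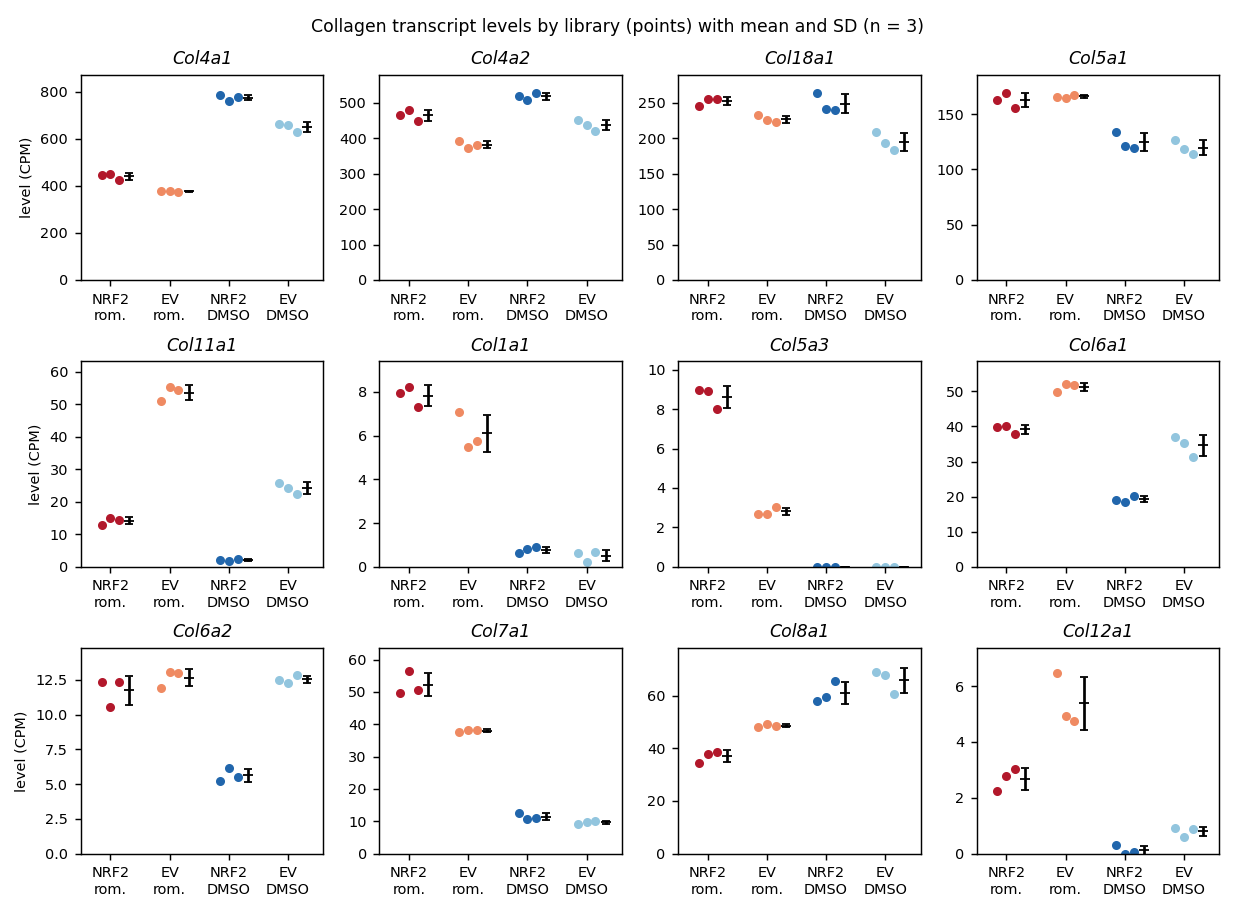
Levels in CPM (y axis, from 0) of 12 collagen genes in the 3 libraries of each group (points; x axis, NRF2 and EV cells with romidepsin, then with DMSO), with mean and SD in black. Col4a1 is lower with romidepsin, Col5a3 has no count with DMSO, and Col6a2 is low in NRF2 cells with DMSO alone, at 5.21 to 6.17 CPM.

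Type VIII collagen, a short-chain network former of vessel wall and cornea, showed opposite changes in its chains. Of these, Col8a2 did not pass the filter on the DMSO libraries, so its rise was tested through the romidepsin libraries, where it was high. Col8a1 had 34.4, 37.7 and 38.7 CPM in NRF2 cells with romidepsin and 48.0, 49.2 and 48.5 CPM in EV cells with romidepsin. With DMSO it had 57.8, 59.4 and 65.5 CPM in NRF2 cells and 68.8, 68.0 and 60.4 CPM in EV cells. Both romidepsin groups lay under both DMSO groups, which overlapped each other. It fell by 0.72 ± 0.06 on the log2 scale in NRF2 cells (edgeR adjusted p = 9.2e-09) and by 0.43 ± 0.06 in EV cells (edgeR adjusted p = 5.8e-06). NRF2 over EV cells was -0.40 ± 0.06 with romidepsin (edgeR adjusted p = 8.6e-05) and -0.11 ± 0.06 with DMSO (edgeR adjusted p = 0.18, or 0.023 when replicate 3 of the NRF2 DMSO group was omitted). Col8a2 averaged 1.59 ± 0.28 and 1.16 ± 0.3 CPM with romidepsin in NRF2 and EV cells and 0.0836 ± 0.097 and 0.131 ± 0.025 CPM with DMSO. It rose by 3.97 ± 0.47 in NRF2 cells (edgeR adjusted p = 5e-07) and 3.10 ± 0.47 in EV cells (edgeR adjusted p = 1.1e-05). Even so, per kilobase it reached 0.0507 ± 0.008 of Col8a1 in NRF2 cells with romidepsin and 0.0282 ± 0.0075 in EV cells with romidepsin. Col10a1, the third short-chain gene and a marker of hypertrophic cartilage, had 2 counts in all.

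Col7a1 and Col17a1, whose products tie epithelium to matrix, rose with romidepsin. Col7a1 encodes the anchoring fibrils that hold the epidermal basement membrane to the dermis. It had 49.8, 56.4 and 50.6 CPM in NRF2 cells with romidepsin and 37.6, 38.4 and 38.2 CPM in EV cells with romidepsin. With DMSO it had 12.6, 10.8 and 11.0 CPM in NRF2 cells and 9.19, 9.77 and 10.0 CPM in EV cells. All 4 groups were apart, and the level was 4.57-fold higher with romidepsin in NRF2 cells (edgeR adjusted p = 1.3e-14) and 3.93-fold higher in EV cells (edgeR adjusted p = 1.5e-13). NRF2 over EV cells was 0.46 ± 0.06 on the log2 scale with romidepsin (edgeR adjusted p = 1.7e-05) and 0.24 ± 0.08 with DMSO (edgeR adjusted p = 0.033). The DMSO call was lost with DESeq2 (adjusted p = 0.062) and limma-voom (adjusted p = 0.074). In edgeR it was lost with the replicate block (adjusted p = 0.051), library size alone (0.065) and the DMSO groups fitted alone (0.091). Omission of replicate 1 or 2 of the EV group or replicate 1 of the NRF2 group also ended it (edgeR adjusted p = 0.064 to 0.16). Col17a1, the transmembrane collagen of hemidesmosomes, had 1.17, 1.16 and 1.31 CPM in NRF2 cells with romidepsin against 0.147, 0.190 and 0 CPM in NRF2 cells with DMSO. In EV cells it had 0.933, 0.946 and 0.802 CPM with romidepsin against 0.320, 0.0592 and 0.154 CPM with DMSO, and no groups overlapped between treatments. It rose by 3.20 ± 0.47 in NRF2 cells (edgeR adjusted p = 5.7e-06) and 2.29 ± 0.46 in EV cells (edgeR adjusted p = 0.00023). Col17a1, unlike Col7a1, did not pass the filter on the DMSO libraries, so it was tested through the romidepsin libraries, where it was high. The other transmembrane member, Col23a1, was below the filter. It had 37 counts in NRF2 cells with romidepsin against 0 in NRF2 cells with DMSO (at least 11.6-fold higher), and 12 counts in EV cells with romidepsin against 1 in EV cells with DMSO.

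The fibril-associated genes, whose products decorate the surface of fibrils, held 5 members. The 4 tested, Col9a3, Col12a1, Col16a1 and Col20a1, were all higher with romidepsin in both NRF2 and EV cells. Of these 4, Col12a1 alone passed the filter on the DMSO libraries, so that this count is largely set by the filter. Of all genes tested, 40.5% were higher with romidepsin in NRF2 cells and 39.1% in EV cells. Col12a1 had 2.24, 2.78 and 3.02 CPM in NRF2 cells with romidepsin and 6.48, 4.91 and 4.77 CPM in EV cells with romidepsin. With DMSO it had 0.295, 0 and 0.0606 CPM in NRF2 cells and 0.908, 0.592 and 0.887 CPM in EV cells. Like Col11a1 and Col6a1, it was lower in NRF2 over EV cells with each agent, at -1.01 ± 0.23 with romidepsin (edgeR adjusted p = 0.0018) and -2.80 ± 0.56 with DMSO (edgeR adjusted p = 0.00084). The romidepsin call was lost with limma-trend on the deposited normalized values (adjusted p = 0.14). Its romidepsin effect was 4.52 ± 0.44 in NRF2 cells and 2.72 ± 0.28 in EV cells, and their difference, 1.79 ± 0.64, was not called in the edgeR fit (adjusted p = 0.067). It was called with DESeq2 (adjusted p = 0.034), with limma-voom (adjusted p = 0.035) and, at 3.78, without replicate 1 of NRF2 cells with DMSO (edgeR adjusted p = 0.0049). Col16a1 averaged 4.72 ± 0.69 and 3.57 ± 0.22 CPM with romidepsin in NRF2 and EV cells and 0.0984 ± 0.086 and 0.117 ± 0.084 CPM with DMSO, or 5.55 ± 0.34 and 4.90 ± 0.34 on the log2 scale.

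Col20a1 was higher with romidepsin (2.36 ± 0.28 in NRF2 and 2.31 ± 0.39 in EV cells). It was also higher in NRF2 over EV cells, by 1.29 ± 0.25 with romidepsin (edgeR adjusted p = 0.00047) and 1.24 ± 0.44 with DMSO (edgeR adjusted p = 0.036). The DMSO call was lost with limma-voom (adjusted p = 0.083) and with the DMSO groups fitted alone, and also when replicate 2 or 3 of the EV group or 1 or 2 of the NRF2 group was omitted. Col9a3, a chain of cartilage type IX collagen, averaged 1.11 ± 0.27 and 0.707 ± 0.17 CPM with romidepsin in NRF2 and EV cells and 0.151 ± 0.066 and 0.139 ± 0.047 CPM with DMSO. Annotated exons of Col9a3 overlap Tcfl5 on the other strand. On the same strand, exons of Col20a1 overlap BX649560.1 and those of Col7a1 overlap Mir711. Col22a1 was below the filter, at 0.318 ± 0.15 and 0.408 ± 0.11 CPM with romidepsin in NRF2 and EV cells and 0.233 ± 0.19 and 0.225 ± 0.045 CPM with DMSO. Col28a1, also below it, averaged 0.245 ± 0.13 and 0.441 ± 0.071 CPM with romidepsin and 0.144 ± 0.042 and 0.299 ± 0.11 CPM with DMSO in those cells. Col26a1 averaged 0.439 to 0.658 CPM in the 4 groups and was called in none of the comparisons. Replicate 3 of EV cells with DMSO read 0.926 CPM, where the other replicates read 0.160 and 0.237 CPM. Without it Col26a1 was called in EV cells with romidepsin over EV cells with DMSO (1.71, edgeR adjusted p = 0.0071).

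Between NRF2 and EV cells the called collagen genes split into a higher and a lower group. With DMSO 7 of the 24 members were higher and 4 lower in NRF2 over EV cells, where 36.3% of all genes tested were called, 19.3% higher and 16.9% lower. With romidepsin 11 were higher and 4 lower, where 45.4% of all genes were called, 23% higher and 22.4% lower. The higher ones with both agents were Col4a1, Col4a2, Col6a3, Col7a1, Col18a1, Col20a1 and Col27a1, and the lower ones were Col6a1, Col11a1 and Col12a1. Col6a2 was called with DMSO alone, and Col1a1, Col2a1, Col5a3, Col8a1 and Col11a2 with romidepsin alone. These counts too are partly set by the filter, as Col2a1, Col5a3, Col11a2 and Col20a1 did not pass that on the DMSO libraries alone. With that filter 7 of 14 members were higher and 4 lower with romidepsin (all genes 23.2% and 23.1%). With DMSO 6 were higher and 4 lower (all genes 21.2% and 18.3%). Groups did not overlap for 18 of 24 members with romidepsin, against 61.2% of all genes, and for 11 with DMSO, against 42.5%.

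**Figure D4:**
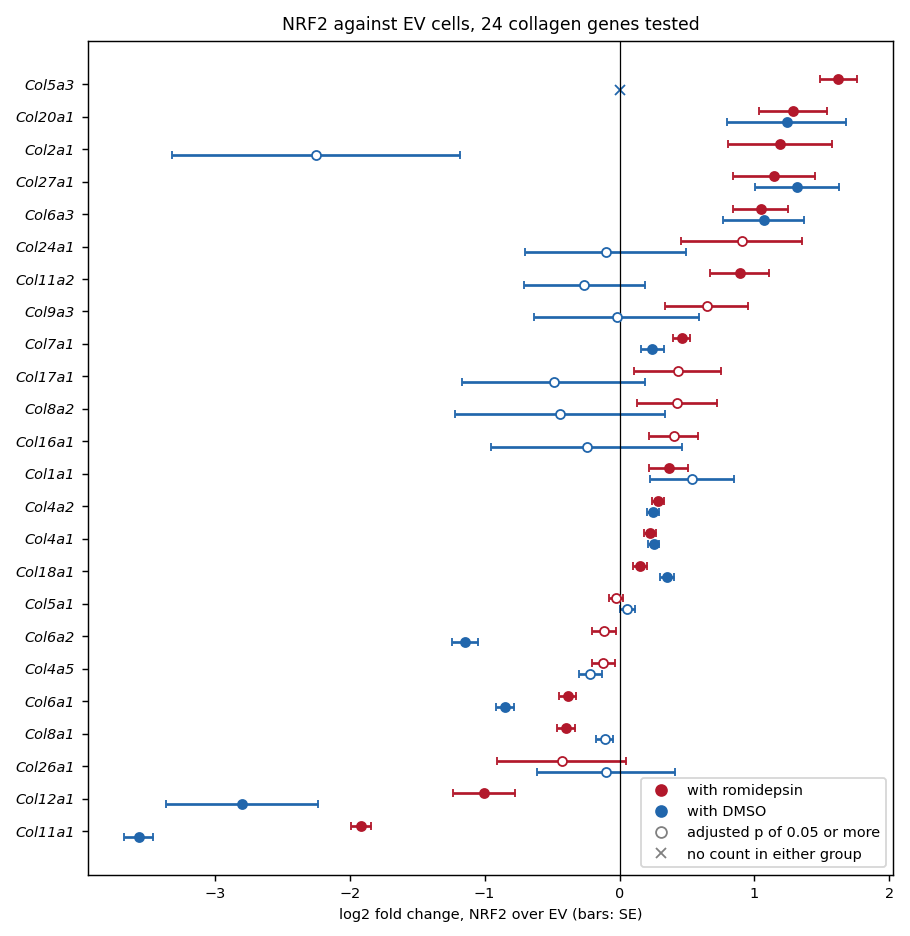
Log2 fold change of NRF2 over EV cells (x axis) for the 24 tested collagen genes (y axis) with romidepsin (dark red) and with DMSO (blue), with standard errors as bars and open points for genes not called. Col11a1, Col12a1 and Col6a1 lie left of 0 with both agents, and the cross marks Col5a3 with DMSO, which had no count in NRF2 or EV cells.

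The romidepsin effect differed between NRF2 and EV cells for 5 of the 24 members, where 15.8% of all genes were called, 5.53% higher and 10.2% lower. Col11a1, Col6a2, Col6a1 and Col2a1 had the larger effect in NRF2 cells, and Col8a1 had the more negative one there. The first 3 were called in every setting run. The calls of Col2a1 and Col8a1 were lost when any of several libraries was left out. The replicate block also ended both (edgeR adjusted p = 0.070 and 0.059). That of Col2a1, which rests on 1 count in NRF2 cells with DMSO, was lost with no filter on low counts too (edgeR adjusted p = 0.071). That of Col8a1 was lost with library size alone (edgeR adjusted p = 0.060). Without replicate 3 of NRF2 cells with DMSO, the library that stood apart, 7 members were called, and 14 were called for NRF2 over EV cells with DMSO.

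Most tested collagen genes rose with romidepsin, a count partly set by the filter, yet the summed collagen level was lower. Per kilobase of the longest transcript, the 27 members summed to 239.5 ± 5.9 and 219.6 ± 1.8 CPM with romidepsin in NRF2 and EV cells and to 279.5 ± 5.5 and 246.7 ± 10.0 CPM with DMSO (SD, n = 3 each). With upper-quartile factors or library size alone the mean with romidepsin stayed under that with DMSO within NRF2 and within EV cells, but the libraries of EV cells overlapped between treatments. Col4a1 and Col4a2 made 58.0% ± 0.76 and 53.0% ± 0.39 of that sum with romidepsin in NRF2 and EV cells, and 70.8% ± 0.58 and 67.4% ± 0.69 with DMSO. The 8 fibrillar genes made 10.4% ± 0.13 and 13.1% ± 0.19 with romidepsin and 5.56% ± 0.23 and 7.16% ± 0.15 with DMSO. In both romidepsin groups the order per kilobase was Col4a2, Col4a1, Col18a1, Col5a1 and Col6a1. In both DMSO groups it was Col4a1, Col4a2, Col18a1, Col5a1 and Col8a1. Libraries of neighbours in these orders did not overlap in any group. Shares and orders depend on the transcript length used. With the median length Col4a1 lay over Col4a2 in every group. Col4a1 and Col4a2 then made 76.9% and 73.5% of the sum with romidepsin in NRF2 and EV cells, and 88.0% and 86.2% with DMSO. Members with a mean of 1 CPM or more numbered 21 in NRF2 cells with romidepsin, 18 in EV cells with romidepsin, 11 in NRF2 cells with DMSO and 10 in EV cells with DMSO.

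**Figure D5:**
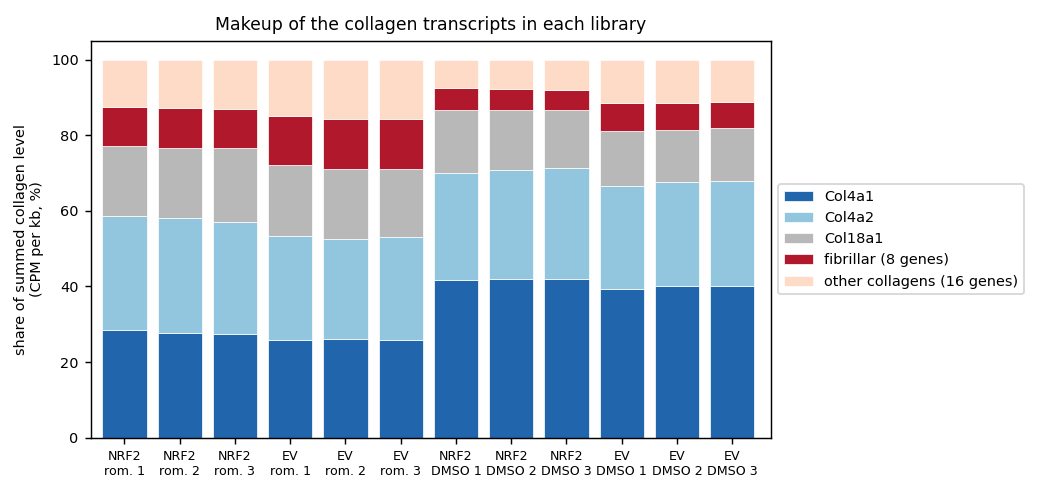
Share of the summed collagen level per kilobase of the longest transcript (y axis, %) held by Col4a1, Col4a2, Col18a1, the 8 fibrillar genes and the other 16 members in each of the 12 libraries (x axis). The type IV share is 52.6% to 58.6% in the romidepsin libraries and 66.6% to 71.3% in the DMSO libraries.

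Genes that modify, fold and process collagen differed in both directions with romidepsin, where 79.8% of all genes tested were called in NRF2 cells and 76.5% in EV cells, about equally higher and lower. Whether any list stands apart from that background was not tested. The lists' median log2 fold changes were -0.56 to 1.18 in NRF2 cells and -0.47 to 1.02 in EV cells, against 0.01 for all genes. Of 10 genes of prolyl hydroxylation, which stabilises the triple helix, 4 were higher and 4 lower with romidepsin in NRF2 cells and 4 higher and 5 lower in EV cells. P4ha2, a catalytic subunit of prolyl 4-hydroxylase, averaged 47.9 ± 2 and 45.7 ± 1.7 CPM with romidepsin in NRF2 and EV cells and 9.91 ± 1.6 and 9.57 ± 0.98 CPM with DMSO. P3h2, which hydroxylates basement membrane collagen, was lower in NRF2 over EV cells with DMSO, at -2.53 ± 0.18 on the log2 scale (edgeR adjusted p = 2.8e-08). Of 5 genes of lysyl hydroxylation and glycosylation, 3 were higher and 1 lower with romidepsin in each. Among those with 1 CPM or more in a group, Plod1 had the largest change (1.65 ± 0.06 in NRF2 and 1.62 ± 0.06 in EV cells). Colgalt2, also higher in each, stayed under 1 CPM. Of 11 folding and export genes in the table, 4 were higher and 5 lower in NRF2 cells and 5 higher and 5 lower in EV cells. Serpinh1, the collagen chaperone HSP47, fell to 23.9 ± 1.3 and 15.3 ± 1.4 CPM with romidepsin in NRF2 and EV cells, against 68.7 ± 4.6 and 39.1 ± 0.44 CPM with DMSO. Fkbp10, a prolyl isomerase of procollagen, was also lower (-1.65 ± 0.07 and -1.52 ± 0.07), and Fkbp14, another, was higher (2.31 ± 0.13 and 2.36 ± 0.13).

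Of 9 genes of propeptide processing 7 were tested, and 5 were lower and 1 higher with romidepsin in both NRF2 and EV cells. Adamts14, a procollagen N-proteinase, averaged 1.33 ± 0.1 and 2.47 ± 0.34 CPM with romidepsin in NRF2 and EV cells and 9.56 ± 0.6 and 10.5 ± 0.31 CPM with DMSO. Of 5 cross-linking genes 4 were tested, and 2 were higher with romidepsin in NRF2 cells and 2 higher and 1 lower in EV cells, while Lox was at 0 in all 12 libraries. Loxl2, a lysyl oxidase that acts on type IV collagen, averaged 216 ± 4.9 and 97.0 ± 3.5 CPM with romidepsin in NRF2 and EV cells and 74.7 ± 2.6 and 20.3 ± 3 CPM with DMSO. It was higher in NRF2 over EV cells (1.89 ± 0.08 with DMSO, edgeR adjusted p = 8.9e-12) and with romidepsin (1.54 ± 0.07 in NRF2 and 2.26 ± 0.08 in EV cells). Its romidepsin effect was smaller in NRF2 cells, at -0.73 ± 0.10 (edgeR adjusted p = 0.00013).

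Of 14 genes of collagen breakdown and uptake 8 were tested, and 6 were higher and 2 lower with romidepsin in NRF2 cells and 5 higher and 2 lower in EV cells. Mmp14, a membrane-bound collagenase and 1 of the 2 lower in each, averaged 34.0 ± 1.4 and 29.2 ± 1.2 CPM with romidepsin in NRF2 and EV cells and 160 ± 4.4 and 123 ± 3.4 CPM with DMSO. Among the higher ones Ctsb had 299 to 311 CPM with romidepsin against 186 to 199 CPM with DMSO in NRF2 cells. In EV cells Ctsb had 210 to 216 against 139 to 146 CPM. Mmp9 rose by 6.07 ± 0.64 in NRF2 and 4.12 ± 0.85 in EV cells, from at most 0.0386 CPM in any DMSO library. Of 10 collagen receptors, 5 were higher and 3 lower in NRF2 cells and 6 higher and 2 lower in EV cells. Ddr1, a receptor tyrosine kinase for collagen, averaged 224 ± 7 and 222 ± 4.6 CPM with romidepsin in NRF2 and EV cells and 141 ± 8 and 171 ± 4.9 CPM with DMSO. Itga2, a collagen-binding integrin chain, averaged 58.2 ± 0.37 and 37.3 ± 0.75 CPM with romidepsin and 134 ± 17 and 63.5 ± 6.1 CPM with DMSO. Of 12 fibril organisers 5 were tested, and 3 (Thbs1, Thbs2 and Tnxb) were higher and 2 (Bgn and Fn1) lower with romidepsin in both NRF2 and EV cells. With DMSO, 4 of these 5 were lower in NRF2 over EV cells, and Tnxb was higher by 2.50 ± 0.27 on the log2 scale (edgeR adjusted p = 1.5e-06). In that comparison 36.3% of all genes tested were called, 19.3% higher and 16.9% lower.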

How the data were processed

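Poly-A RNA of 12 libraries was sequenced (Trizol extraction and TruSeq libraries, per the labels' protocols). Per the submitters' processing notes the build was GRCm38, and kallisto 0.44.0, bcl2fastq 2.19 and DESeq2 (version not given) were used. The authors deposited kallisto estimated counts per gene symbol, all of them whole numbers. They also deposited a normalized signal, which is each estimated count divided by a DESeq2 size factor of its library and was used in 1 alternative. Genes were joined to GENCODE M21 by symbol, and all 44 collagen symbols matched once. The default filter of edgeR 4.0.16 on the 4 groups left 13502 genes, fitted with TMM factors and the robust quasi-likelihood test (two-sided, 8 residual degrees of freedom). Each SE was taken as the size of the log2 fold change divided by the root of its F statistic. Levels per kilobase used the longest transcript, chosen once short fragment transcripts were seen to distort the median length. The fitting code was tested on simulated data.

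The members and gene lists were chosen with earlier results of these data known. Given library by library were called members with at least 5 CPM in a group, at most 4 per family, and the most abundant member of each family. Promoter windows came from RefSeq tables, searched on both strands. As alternatives, scaling used RLE factors, upper-quartile factors or library size alone, and fits used other filters, DESeq2 1.42.0, limma-voom and limma-trend (limma 3.58.1), pairs of groups fitted alone, the replicate number as a block, and leaving out each library. kallisto divides reads between similar transcripts, so that values of related genes are estimates.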

Additional observations from a re-analysis of the deposited data

Results flagged for a closer look

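The romidepsin effect differed between NRF2 and EV cells by the interaction test of edgeR for 5 collagen genes. The log2 difference, NRF2 minus EV cells, was 1.65 for Col11a1 (edgeR adjusted p = 7.8e-07), 1.03 for Col6a2 (edgeR adjusted p = 6.3e-05) and 0.46 for Col6a1 (edgeR adjusted p = 0.0021). Each of these was also lower in NRF2 over EV cells with DMSO. Col8a1 gave -0.29 (edgeR adjusted p = 0.037), with the larger fall in NRF2 cells. Col2a1 gave 3.44 (edgeR adjusted p = 0.05, just under the threshold), and it rests on 1 count over the 3 libraries of NRF2 cells with DMSO.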

How the results depend on the processing

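With 1 library left out, the collagen genes called numbered 19 to 20 for romidepsin in NRF2 cells, 19 in EV cells, 12 to 15 and 9 to 14 for NRF2 over EV cells with romidepsin and with DMSO, and 3 to 7 for the interaction. The share of all genes called in these fits was not computed. With the filter on the DMSO libraries alone, chosen after seeing the data, romidepsin called 10 in NRF2 and 11 in EV cells, as fewer were tested. The interaction called 3 with the replicate block and 5 without it. Same-numbered libraries did not deviate together (correlations -0.12 to 0.06), so that the numbers were not taken to pair samples, and no other count moved by over 1.5 times under the block. Pcolce, lower in NRF2 cells with romidepsin over DMSO, reversed to 0.0047 with library size alone (edgeR adjusted p = 0.94). That setting moves the median of all genes up by 0.14 in this comparison, and the cause for Pcolce was not tested. With the median transcript length the ratios of chains change by 1 constant per pair, which leaves the order of groups as it is. Members under 1 CPM rest on few counts, which limits their precision.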
